A study of Mus musculus with 2 samples.

Results

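Among 562 CD8+ T cells of the spleen, 90 carried transcripts of at least 2 of the checkpoint receptor genes Tigit, Ctla4 and Lag3, and these 90 are described here as receptor-rich CD8 T cells. They made up 16% of the CD8+ T cells (95% interval 13.1 to 19.3%) among 16829 cell barcodes in all. The members were chosen by their own transcript counts, with all samples pooled. A cell needed at least 200 genes, at most 10% mitochondrial transcripts, at least 2 transcripts of Cd3d, Cd3e, Cd3g and Trac together, at least 1 of Cd8a and Cd8b1, and none of Cd4, Cd79a, Ms4a1 or Ncr1. The 472 CD8+ T cells with none or 1 of the 3 receptor genes served as the comparison, called the other CD8 T cells.

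The spleens came from C57BL/6 wild-type mice, 8 weeks old, all of which had been sensitized to ovalbumin (OVA) on days 0 and 10. The mice then stayed without therapy, or received Standard therapy (OVA in PBS on days 20, 22 and 24 and OVA in Alum on days 40 and 60), or DCIR2-Fp, an antibody to the dendritic cell receptor DCIR2 joined to OVA, on days 20, 22 and 24. On day 80 the mice were challenged with OVA for 45 min, and ionomycin (1 µg/ml) together with PMA (50 ng/ml) then acted on the spleen cells for 3 h, a stimulus that bypasses the antigen receptor and drives cytokine transcription in any primed lymphocyte. CD45+ CD11b- and CD45+ CD11b+ cells were sorted, mixed in equal parts, and sequenced as 1 multiplexed pool with 4 antibody-borne DNA tags, called hashtags. The 3 conditions are not paired with the 4 hashtags in the sources used here, so all values are those of the pool, and no comparison between therapies was made. The cells were chosen by their own transcripts, and hashtags tied to no condition are not replicates of a group, so no test was made. Values within each hashtag are given side by side at the end. The 95% intervals reflect counting error alone and say nothing of how mice differ.

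TIGIT, CTLA-4 and LAG-3 are surface receptors that dampen T cell activation. CTLA-4 competes with CD28 for its ligands on antigen-presenting cells, TIGIT competes with CD226 for nectin-like ligands, and LAG-3 binds MHC class II. T cells show several of them together after repeated or persistent stimulation, in regulatory T cells, and in IL-10-producing T cells, where IL-10 is a cytokine that restrains antigen-presenting and effector cells.

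Levels are given as counts of tagged RNA molecules (UMIs) per 1000000 UMIs of the same cells (CPM). Of the receptor genes that chose the cells, Ctla4 was the most abundant, at 578 CPM in the receptor-rich cells with a UMI in 85 of the 90, against 109 CPM in the other CD8 T cells. Lag3 stood at 95.7 CPM in 59 cells and Tigit at 65.8 CPM in 60 cells, against 5.50 and 7.66 CPM. The receptor-rich cells divided into 31 with Tigit and Ctla4, 30 with Ctla4 and Lag3, 5 with Tigit and Lag3, and 24 with all 3. Just outside the threshold stood 132 cells with 1 receptor gene, and 340 cells had none. These values follow from the choice and are a description. A low transcript is seen more easily in a deep cell, and the median depth was 9903.5 UMIs with no receptor gene, 10712 with 1, 11934 with 2 and 15737 with 3.

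Transcripts that had not been used in the choice went in part with the CD8 label. Runx3, the factor that maintains the CD8 lineage, had a UMI in 53.3% of the receptor-rich and 48.5% of the other CD8 T cells, while Zbtb7b, its counterpart of the CD4 lineage, was found in 1 cell of each group. Trbc2, of the T cell receptor beta chain, stood at 902 CPM against 716. The gamma-delta chain gene Trdc was seen in 2 of the 90 cells and Zbtb16, of innate-like T cells, in 1 cell, and none of the 6 genes of that list had enough UMIs for a ratio. Cd40lg, the only 1 of 3 CD4 lineage genes with enough, stood at 44.1 against 25.9 CPM. Of 10 T cell genes outside the rule none differed 2-fold, with a median log2 ratio of 0.14. The receptor-rich cells were deeper, with a median of 12523.5 UMIs (between 3198 and 58726) and 3325.5 genes against 10167.5 UMIs and 2712 genes. Their median share of ribosomal protein transcripts was 23.6% against 29.3%. Carrying more than 1 hashtag marked 21 receptor-rich cells (23.3%) and 110 of the other CD8 T cells (23.3%) as possible doublets, and Scrublet, a doublet caller, marked 6 (6.67%) and 20 (4.24%).

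Across the transcriptome, 7605 genes had at least 50 UMIs over both groups, the 13 genes of the rule being left out. In the receptor-rich cells 512 of them, 6.73%, were at least 2-fold higher, and 227 of them, 2.98%, were at 0.5-fold or lower. The median log2 ratio over all 7605 genes was 0.09, with the middle 50% between -0.21 and 0.44. Without the cell richest in each gene in either group (chosen after the data were seen), 380 of the 512 higher genes still reached 2-fold, and 225 of the 227 lower ones stayed at 0.5-fold or less. Of the 153 genes in the lists described below that had enough UMIs, 36 were higher and 11 lower, and after thinning every cell to 2000 UMIs 23 of the 101 that still had enough UMIs were higher.

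Il10 (chromosome 1, 131019845 to 131024974, plus strand, GRCm38) was among the genes with the highest ratios. Its place in that order is a description, since Il10 reached the minimum of UMIs only with the UMIs of the receptor-rich cells. It had 167 UMIs in 36 of the 90 cells, which is 40.0% of them (29.8 to 50.9%), and 43 UMIs in 20 of the 472 other CD8 T cells, which is 4.24% (2.61 to 6.47%). The level was 125 CPM (107 to 145) against 8.45 CPM (6.11 to 11.4), a ratio of 14.8 (10.5 to 21.2). NK cells, taken as a lymphocyte with little Il10 and with a median depth of 5281.5 UMIs, had an Il10 UMI in 1.89% of the cells. After thinning each cell to 2000 UMIs, 15.6% of the receptor-rich cells and 1.91% of the other CD8 T cells had an Il10 UMI. In NK cells, thinned in a random part of the group, the share was 0.308%. At this equal depth the level was 194 CPM in the receptor-rich cells against 15.9 CPM in the other CD8 T cells.

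Il10 was uneven among the receptor-rich cells. The 36 positive cells held between 1 and 20 Il10 UMIs with a median of 2, and 14 of them held 1 UMI. The 6 cells with at least 10 UMIs held 90 of the 167. Leaving out the richest cell of each group gave 111 CPM, against 7.29 CPM in the other CD8 T cells. The receptor-rich cells were 4.43% of the T cells by the same T cell rule, yet held 17.1% of the Il10 UMIs of these T cells and 79.5% of those of the CD8+ T cells. Of all 4973 Il10 UMIs in the filtered pool they held 3.36%.

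By receptor pair, the highest Il10 level was in the 30 cells with Ctla4 and Lag3, at 196 CPM (154 to 245) with 11 positive cells. The 24 cells with all 3 receptor genes followed with 145 CPM (111 to 185) and the largest share of positive cells, 58.3% (36.6 to 77.9%). The 31 cells with Tigit and Ctla4 had 59.4 CPM (38.8 to 87.1) in 10 positive cells, with an interval below those of the other 2 combinations. These intervals count UMIs and not cells, and 6 cells held 90 of the 167 Il10 UMIs. The shares of positive cells were close, at 36.7% (19.9 to 56.1%) for Ctla4 and Lag3 and 32.3% (16.7 to 51.4%) for Tigit and Ctla4. A difference in level between the pairs was not tested. The 5 cells with Tigit and Lag3 held 1 Il10 UMI. The median depth was 9996.5 UMIs for Ctla4 and Lag3, 13718 for Tigit and Ctla4 and 15737 for all 3, so that the combination with the largest share of positive cells was also the deepest of these.

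Il10 stood at 3.09 CPM (1.54 to 5.52) in CD8+ T cells with no receptor gene, 21.0 (14.3 to 29.6) with 1, 115 (93.9 to 140) with 2 and 145 (111 to 185) with 3. The steps from none to 1 and from 1 to 2 lay outside each other's intervals, and the last step did not. After thinning, the share of cells with an Il10 UMI was 0.885%, 3.03%, 13.6% and 29.2% in the same order. Thinning draws UMIs at random, and these shares do not add up to the thinned shares of the whole groups given above. They are thus not from the same draw. Gzmb, a granule protease that kills target cells, went from 381 to 989, 1577 and 1495 CPM, and Nkg7, a granule membrane protein, from 149 to 402, 792 and 699 CPM. Havcr2, the TIM-3 receptor, went from 26.4 to 76.1, 150 and 206 CPM. Ifng, which encodes interferon gamma, had another order, with 1443, 2555, 2973 and 1233 CPM. Satb1, a chromatin organizer of naive T cells, had 2091, 2024, 1158 and 570 CPM, so that its level was lower from 2 receptor genes on.

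**Figure D1:**
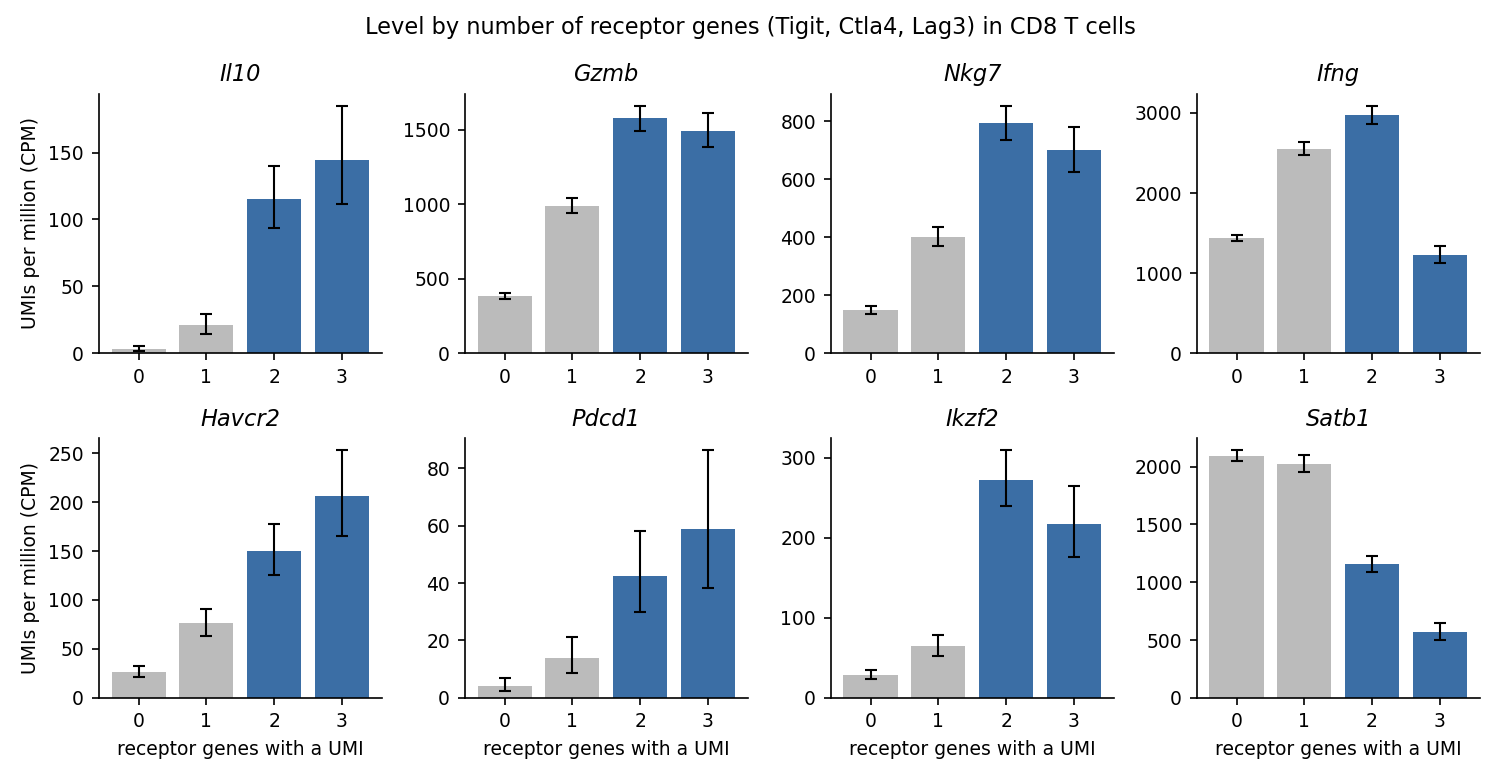
Level of 8 genes in CD8+ T cells with 0, 1, 2 or 3 of the receptor genes Tigit, Ctla4 and Lag3 (340, 132, 66 and 24 cells), in CPM with exact Poisson 95% intervals; blue bars are the receptor-rich cells. Il10 stood at 3.09, 21.0, 115 and 145 CPM from left to right, whereas Satb1 had 2091 CPM with none and 570 CPM with 3.

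Of 14 other inhibitory receptor and exhaustion factor genes 9 had enough UMIs, 5 of these were at least 2-fold higher and none lower, with a median log2 ratio of 1.01. Pdcd1, which encodes PD-1, stood at 47.9 CPM with a UMI in 32 of 90 cells, against 7.07 CPM in 27 of 472, a ratio of 6.77 (4.43 to 10.5). Havcr2 stood at 168 CPM in 45.6% of the cells against 41.3 CPM in 12.1%, a ratio of 4.08 (3.36 to 4.95). Tox, a nuclear factor of persistently stimulated CD8 T cells, stood at 776 CPM in 84.4% of the cells against 187 CPM in 33.9%, a ratio of 4.16 (3.80 to 4.54). Its relative Tox2 was higher by 2.01 (1.31 to 3.04), and so was Cd244a, the receptor 2B4, by 2.03 (1.19 to 3.36). Btla and Cd160, receptors of the ligand HVEM, and Cd96 were level, with ratios of 1.00 (0.803 to 1.24), 0.951 (0.807 to 1.11) and 0.975 (0.635 to 1.46). After thinning to 2000 UMIs, Pdcd1 had a UMI in 13.3% against 2.34% of the cells and Tox in 55.6% against 15.9%. Pdcd1, Havcr2 and Tox were the 3 of 9 at 2-fold without the richest cell of each gene, without hashtag 11, without hashtag 12 and in cells with at least 3 T cell UMIs. After thinning to 2000 UMIs 4 genes of this list had enough UMIs, and Havcr2 and Tox were the 2 at 2-fold.

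**Figure D2:**
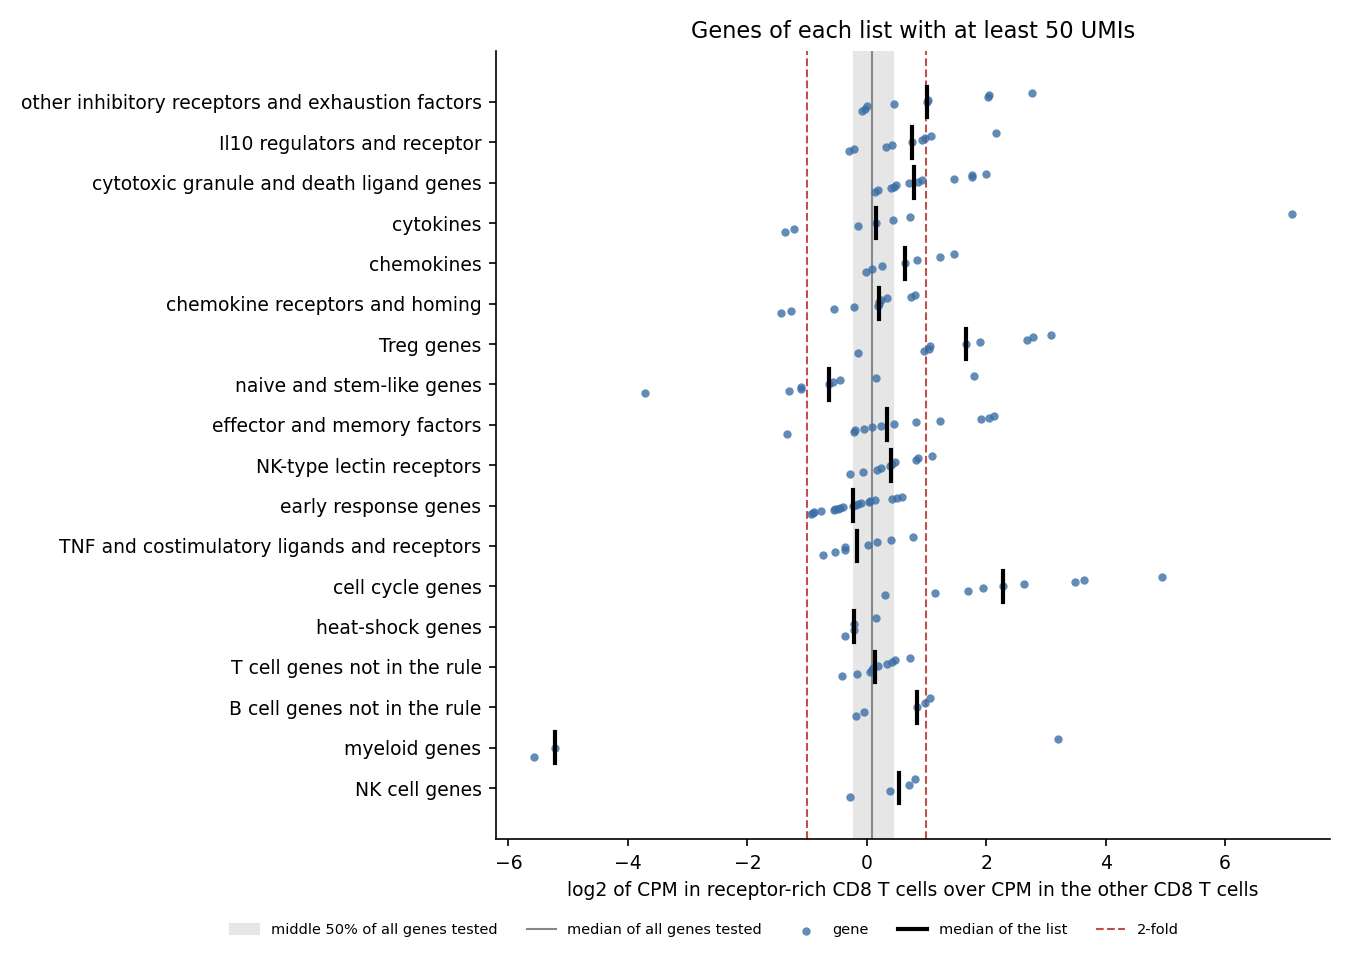
Log2 ratio of CPM in the 90 receptor-rich cells over CPM in the 472 other CD8 T cells, a point for each gene with at least 50 UMIs in the lists with 3 or more such genes; black bars are list medians, the grey band holds the middle 50% of all 7605 genes and dashed lines mark 2-fold. Cell cycle genes (median 2.29), regulatory T cell genes (1.66) and inhibitory receptors (1.01) lie to the right, and naive genes (-0.63) to the left. The myeloid list (median -5.22 over 3 genes) lies farthest left through S100a8 and S100a9, most of whose UMIs were in 1 cell.

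Genes known from regulatory T cells made up the list with the second highest median, 1.66 on the log2 scale. Of 14 genes 9 had enough UMIs, 7 of them were at least 2-fold higher and none was lower. Ikzf2, which encodes the factor Helios, stood at 254 CPM in 41 of 90 cells against 39.5 CPM in 58 of 472, a ratio of 6.44 (5.39 to 7.71). Tnfrsf4, the receptor OX40, stood at 376 CPM in 28.9% of the cells against 54.8 CPM in 6.36%, where 1 of the other CD8 T cells held 90 of 279 UMIs. Izumo1r, which encodes folate receptor 4, was higher by 8.51 (4.69 to 16.1), Nrp1 by 3.74 (2.82 to 4.94), Tnfrsf18, the receptor GITR, by 3.17 (2.55 to 3.93), Capg by 2.07 (1.56 to 2.75) and the costimulator Icos by 2.05 (1.80 to 2.33). Izumo1r, with 17 UMIs in the other CD8 T cells, reached the minimum only with the UMIs of the receptor-rich cells, so this count is a description. Il2ra, the IL-2 receptor alpha chain, stood at 645 against 712 CPM. Tnfrsf9, the receptor 4-1BB, was at 563 against 291 CPM and did not reach 2-fold.

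Foxp3, the defining factor of regulatory T cells, had 29 UMIs in 8 of the 90 receptor-rich cells, 8.89% of them (3.92 to 16.8%), and 5 UMIs in 2 of the 472 other CD8 T cells. It was under the minimum of 50 UMIs. B cells with a median depth of 10690 UMIs had a Foxp3 UMI in 0.183% of the cells. Of the 8 Foxp3-positive cells 7 also had Ikzf2 and 3 had Il10, and the other 33 Il10-positive cells had no Foxp3 UMI. Without the cells with Foxp3, the Il10 level of the receptor-rich cells was 134 CPM. The number of regulatory T cell genes at 2-fold was then 4 of 8, with a list median log2 ratio of 1.17. Capg, Icos and Izumo1r were not counted as higher there. The count was 4 without hashtag 12 as well.

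Set beside 190 Foxp3-positive T cells without CD8 transcripts, with a median depth of 10289 UMIs, the receptor-rich cells had some of these genes at a higher level and others at a lower one. Il10 was higher in the receptor-rich cells than in the Foxp3-positive ones, at 125 against 66.2 CPM, a ratio of 1.89 (1.51 to 2.36), with a UMI in 40.0% against 22.6% of the cells. The ratios of the 3 receptor genes, which chose the receptor-rich cells, are a description. They were 0.832 (0.639 to 1.07) for Tigit, 3.19 (2.38 to 4.30) for Lag3 and 0.317 (0.293 to 0.342) for Ctla4. Havcr2 was higher by 2.17 (1.78 to 2.65) and Pdcd1 by 1.71 (1.20 to 2.44), while Tox was lower, at 0.597 (0.556 to 0.640). Ikzf2 was at 0.191 (0.170 to 0.213) of the level in Foxp3-positive cells and Tnfrsf4 at 0.150 (0.137 to 0.165). Nkg7, Prf1, Ifng and Eomes, a factor of cytotoxic lymphocytes, pointed the other way. Nkg7 was higher by 7.88 (6.84 to 9.12), Prf1 by 5.30 (4.10 to 6.91), Ifng by 4.84 (4.53 to 5.18) and Eomes by 6.63 (4.0 to 11.5). Cst7, another gene of the cytotoxic list, stood closer, at 1.45 (1.09 to 1.93), and no count over that list is given for this comparison.

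**Figure D3:**
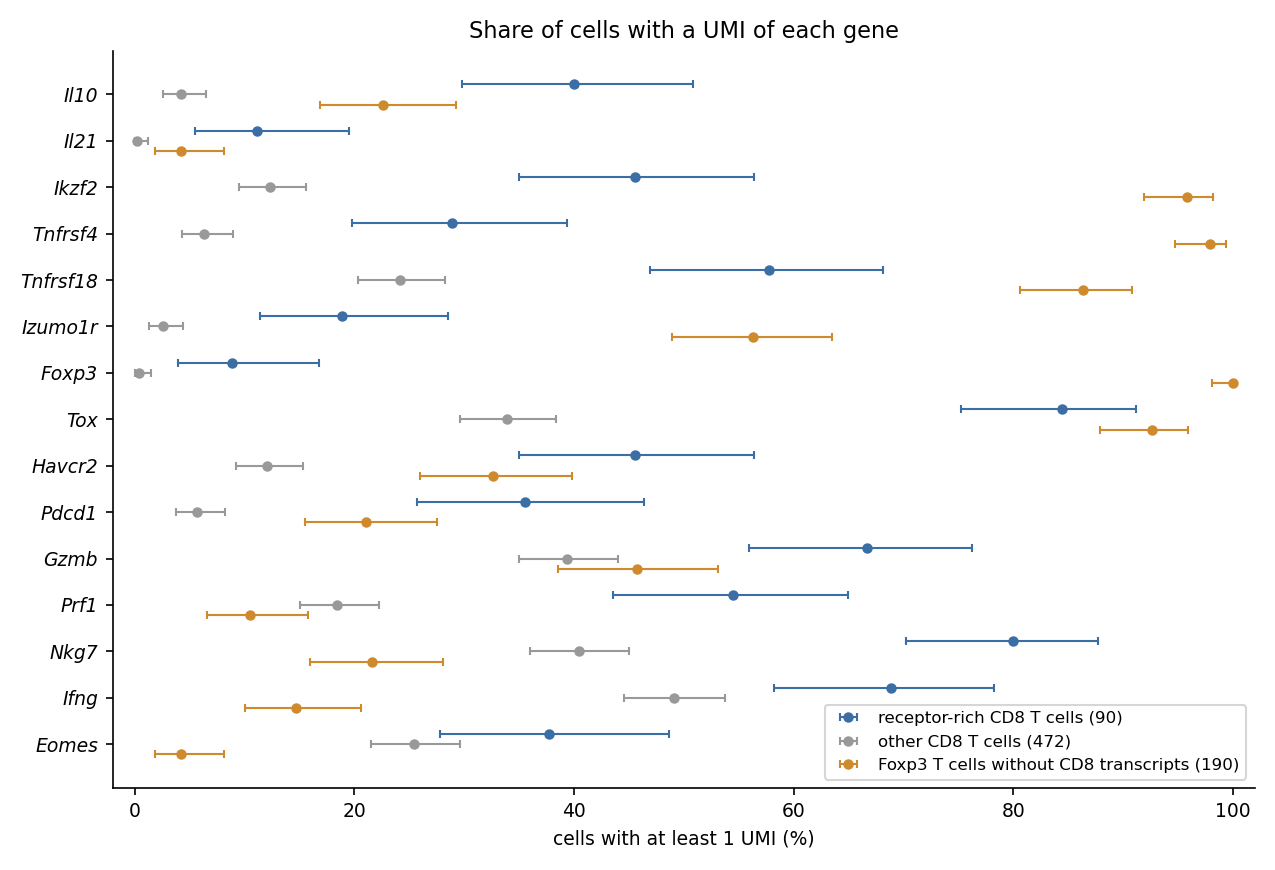
Share of cells with at least 1 UMI of 15 genes in receptor-rich CD8 T cells (blue), other CD8 T cells (grey) and Foxp3 T cells without CD8 transcripts (orange), with exact 95% binomial intervals. Il10 was found in 40.0%, 4.24% and 22.6% of the cells, Nkg7 in 80.0%, 40.5% and 21.6%, and Ikzf2 in 45.6%, 12.3% and 95.8%.

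Genes of killing were among those that stood higher in the receptor-rich cells. Of 12 cytotoxic granule and death ligand genes with enough UMIs 4 were at least 2-fold higher and none lower, and their median log2 ratio was 0.78. Prf1, the pore-forming perforin, stood at 174 CPM in 54.4% of the cells against 43.8 CPM in 18.4%, a ratio of 3.98 (3.30 to 4.80). Nkg7 stood at 761 against 225 CPM and Gzmb at 1550 against 564 CPM, ratios of 3.39 (3.11 to 3.69) and 2.75 (2.60 to 2.91). Tnfsf10, the death ligand TRAIL, was higher by 3.41 (2.29 to 5.06), with 51 UMIs in 20 cells. Gzma, another granule protease, stood at 562 against 345 CPM, but 1 receptor-rich cell held 214 of its 752 UMIs, and without it the level was 402 CPM. After thinning, 53.3% of the receptor-rich and 23.6% of the other CD8 T cells had a Gzmb UMI.

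The cytokines had no common direction, with a median log2 ratio of 0.15 over 7 genes, of which 1 was higher and 2 were lower. Ifng stood at 2398 CPM in 68.9% of the cells against 1776 CPM in 49.2%, a ratio of 1.35 (1.30 to 1.41), and Il2, the T cell growth factor, at 276 against 166 CPM. Tnf was lower, at 21.7 CPM in 20 of 90 cells against 50.3 CPM in 144 of 472, a ratio of 0.431 (0.283 to 0.635). Lta, which encodes the related lymphotoxin alpha, was at 0.387 (0.137 to 0.894) with 6 UMIs. Il4, Il5, Il13 and Il17a, cytokines of other helper lineages, were among the 7 genes of the list with too few UMIs.

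Il21, a cytokine of follicular helper and exhausted helper T cells, passed the minimum of 50 UMIs through the receptor-rich cells alone, so that its place at the top of the ratios is a description. It had 73 UMIs in 10 of the 90 receptor-rich cells, 11.1% (5.46 to 19.5%), and 2 UMIs in 1 of the 472 other CD8 T cells, so that the ratio of 139 had an interval from 37.1 to 1169. The richest cell held 26 UMIs. Without hashtag 10 it had 43 UMIs in 5 cells and without hashtag 12 it had 47 UMIs in 9 cells, which is under the minimum of 50 UMIs, so that no cytokine was counted as higher there or after thinning. The Il21 level was 47.3 CPM without hashtag 10, where the other CD8 T cells had no Il21 UMI, and 41.6 against 0.486 CPM without hashtag 12. Of the 10 cells 5 also had Il10, 7 had Ikzf2, 6 had Il2 and 6 had Pdcd1, and none had Foxp3. In Foxp3-positive T cells the Il21 level was lower than in the receptor-rich cells, with a ratio of 2.69 (1.85 to 3.94) between them.

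Chemokines attract further leukocytes, and 2 of 7 with enough UMIs were 2-fold higher. Ccl5, a chemokine of effector and memory CD8 T cells, stood at 3754 against 1607 CPM, in 86.7% against 63.3% of the cells. Ccl3 stood at 2767 against 1551 CPM and Ccl4 at 16020 against 10286 CPM. Xcl1, which attracts cross-presenting dendritic cells, was level at 3490 against 3510 CPM. Ccl9 passed 2-fold with 58 UMIs in 4 cells. Ccl5 did not pass 2-fold without hashtag 11. Ccl9 was not counted as higher without hashtag 10, without hashtag 12, without the cells with Foxp3, with at least 2 CD8 UMIs or after thinning. The median log2 ratio of the chemokines was 0.64, and 4 of 7 passed 2-fold against cells with no receptor gene.

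Among cells with at least 1000 CPM of Ifng, 33 receptor-rich cells and 90 other CD8 T cells were set side by side. Their Ifng levels, which the choice made alike, were 7656 and 8082 CPM. Il10 stood at 288 CPM (238 to 346) in 16 of the 33 cells and at 16.2 CPM (9.44 to 25.9) in 7 of the 90, a ratio of 17.8 (10.6 to 31.6). Within this Ifng-high setting Prf1 was higher by 3.67 (2.79 to 4.83), Nkg7 by 2.38 (2.09 to 2.71), Ikzf2 by 5.05 (3.54 to 7.28), Pdcd1 by 5.13 (2.92 to 9.29) and Tox by 3.40 (2.93 to 3.94). Tnf was lower here too, at 0.345 (0.166 to 0.649), and Ccl4 stood close, at 30127 against 27266 CPM.

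The known regulators of Il10 and its receptor were less different than Il10 itself. Of 9 with enough UMIs 2 were at least 2-fold higher and none lower, with a median log2 ratio of 0.76. Il10ra, the ligand-binding receptor chain, stood at 35.9 against 8.05 CPM, a ratio of 4.46 (2.88 to 6.94), and the factor Nfil3 at 29.9 against 14.1 CPM. Nfil3 was not counted as higher without hashtag 10, without the cells with Foxp3, with at least 2 CD8 UMIs, without the richest cell of each gene or after thinning. Prdm1, which encodes Blimp-1, stood at 41.9 against 21.4 CPM, Bhlhe40 at 105 against 55.4 and Batf at 209 against 124, all below 2-fold. Prdm1 and Bhlhe40 both passed it without hashtag 10, with at least 2 CD8 UMIs and in cells with 5000 to 20000 UMIs. They also passed it against cells with no receptor gene, as a mean over cells and without dividing cells (chosen after the data were seen). Prdm1 passed it without hashtag 9, Scrublet doublets or the cells with Foxp3 as well, and Batf after thinning to 2000 UMIs. Maf, another factor that binds Il10, had 24 UMIs in 11 of the 90 cells against 21 UMIs in 11 of the 472, too few to enter the list's count.

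Of 9 genes of naive and stem-like T cells 4 were at 0.5-fold or less and 1 was higher, with a median log2 ratio of -0.63. Satb1 stood at 963 against 2071 CPM and Bach2, a repressor of effector genes, at 772 against 1650 CPM, ratios of 0.465 (0.439 to 0.493) and 0.468 (0.438 to 0.499). Lef1, a factor of the Wnt pathway in naive T cells, was at 48.6 against 120 CPM. The gut-homing receptor gene Ccr9 had 1 UMI against 50, a ratio of 0.0761 (0.00189 to 0.444). Tcf7, the partner of Lef1, was at 40.4 against 59.5 CPM, a ratio of 0.679 (0.498 to 0.909). Dapl1 went the other way, by 3.48, but 1 cell held 26 of its 43 UMIs.

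Among 11 genes of homing 2 were lower and none was 2-fold higher. Ccr7, which guides cells to T cell zones, was among the lower ones, at 0.415 (0.302 to 0.560). Cd44, a marker of antigen-experienced cells, had a UMI in 90.0% of the receptor-rich and 66.3% of the other CD8 T cells, with levels of 557 and 475 CPM. Of 12 effector and memory genes 4 were higher, with a median log2 ratio of 0.34. S100a4 stood at 187 against 42.8 CPM, S100a6 at 340 against 82.5 and the galectin gene Lgals1 at 393 against 105, all of them genes of migrating effector cells, besides Ccl5. Ly6c2 was lower, at 0.397 (0.267 to 0.572). The effector factors Tbx21 and Eomes were level, with ratios of 0.876 (0.692 to 1.10) and 1.18 (0.890 to 1.54).

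Cell cycle genes had the highest list median, 2.29, with 8 of 9 at least 2-fold higher, or 5 of the 6 with enough UMIs without hashtag 10. This is a description, since Mki67, Birc5 and Hist1h1b reached the minimum only with the UMIs of the receptor-rich cells. Mki67 had 54 UMIs in 10 of the 90 cells against 33 in 9 of the 472, and Top2a 89 UMIs in 17 cells against 88 in 31. At least 2 of 6 dividing-cell genes were found in 10 receptor-rich cells (11.1%) and 7 other CD8 T cells (1.48%). These 10 cells were deep, with a median of 21691 UMIs, and 5 of them had Il10, at 28.4 CPM. Among cells with 5000 to 20000 UMIs 2 of 5 cell cycle genes with enough UMIs stayed 2-fold higher, with a list median of 0.07. Without the dividing cells, a step chosen after the data were seen, the Il10 level of the receptor-rich cells was 151 CPM.

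Genes that answer the stimulation itself were not higher. None of 19 early response genes differed 2-fold, and their median log2 ratio was -0.22. Nr4a1, a direct target of calcium and protein kinase signals, stood at 137 against 199 CPM, Egr2 at 106 against 103 and Rel at 479 against 672. None of 8 genes of TNF and costimulatory ligands and receptors and none of 4 heat-shock genes passed 2-fold, with medians of -0.17 and -0.21.

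Among the 15 genes with the highest ratio stood Dlg2, Perp, Itgb8, Pclaf, Hist1h1b, Cd200, Gpm6b, Stard13, Hist2h2ac and Cenpa besides Il21, Il10, Izumo1r and Tnfrsf4. The place of such genes at the top is a description. Of those named here, only Cd200 and Tnfrsf4 had at least 50 UMIs in the other CD8 T cells. The rest, Il10 and Il21 among them, reached the minimum of 50 UMIs only with the UMIs of the receptor-rich cells. Cd200, the ligand of an inhibitory receptor on myeloid cells, stood at 106 CPM in 36 of the 90 cells against 11.2 CPM in 32 of 472, a ratio of 9.48 (6.93 to 13.1). Itgb8, the integrin chain that activates latent TGF-beta, had 71 UMIs in 16 cells against 11 UMIs in 4 cells, a ratio of 24.6 (12.9 to 51.4), and stood at 0.146 (0.113 to 0.185) of its level in Foxp3-positive T cells. Perp, which encodes a membrane protein of the p53 response, had 51 UMIs in 20 cells against 7 in 6, and the scaffold gene Dlg2 82 UMIs in 17 cells against 9 in 6. Pclaf, Hist1h1b, Hist2h2ac and Cenpa belong to DNA replication, chromatin and division.

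At the low end of the ratios, Yes1, a Src family kinase, had 4 UMIs against 155, a ratio of 0.0983 (0.0264 to 0.257), and Map3k12 had 2 against 74, a ratio of 0.103 (0.0122 to 0.385). Tle1, a corepressor, had 8 UMIs in 5 of the 90 cells against 161 in 103 of the 472, a ratio of 0.189 (0.0803 to 0.382), and the factor Nfix 6 UMIs against 94. In this end of the order stood also 1810034E14Rik, Pcbp3, Fam78b, Boll, Lonrf1, A230072E10Rik, App, Hpgds and Gm43126, with ratios between 0.193 for 1810034E14Rik and 0.258 for Gm43126. The neutrophil genes S100a8 and S100a9 were lowest of all, but 1 of the other CD8 T cells held 2517 of the 2719 S100a8 UMIs and 3196 of the 3412 S100a9 UMIs of its group.

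Within the receptor-rich cells, the 36 with Il10 were compared with the 54 without, whose median depths were 11605 and 14105 UMIs. Il21 was higher in the Il10-positive cells by 8.92 (4.75 to 18.2), Perp by 9.43 (4.38 to 23.2), Havcr2 by 3.88 (2.91 to 5.23), Gzmb by 3.29 (3.01 to 3.61), Ikzf2 by 3.17 (2.53 to 4.0) and Pdcd1 by 3.13 (1.83 to 5.46). The Il21 difference lay in the level and not clearly in the share of cells, since Il21 was found in 13.9% (4.67 to 29.5%) and 9.26% (3.08 to 20.3%) of them and 1 Il10-positive cell held 26 of 61 UMIs. Of the 43 Perp UMIs in Il10-positive cells 1 cell held 17, and without the richest cell on each side the Perp level was 53.6 against 7.05 CPM. Havcr2 had a UMI in 63.9% of the Il10-positive and 33.3% of the other receptor-rich cells. Pdcd1 was found in 50% and 25.9% and Ikzf2 in 58.3% and 37.0%, and the intervals of all 3 pairs of shares overlapped. Ccl1, a chemokine, had none of its 64 UMIs in the Il10-positive cells, all of them lying in 3 cells. Bach2 was lower in Il10-positive cells, at 0.419 (0.357 to 0.490). The Ctla4 level, of a gene of the rule and given as a description, was higher by 2.38 (2.06 to 2.75) in them. Transcripts of B cells and of MHC class II were higher in the Il10-positive cells as well, Cd74 by 3.09 (2.64 to 3.63), the class II chain gene H2-Aa by 2.27 (1.79 to 2.89) and the immunoglobulin light chain gene Igkc by 2.10 (1.49 to 2.96). Of the 434 Cd74 UMIs of the Il10-positive cells 1 cell held 229, and a Cd74 UMI was found in 33.3% of the Il10-positive and 29.6% of the other receptor-rich cells. The part of such transcripts in these differences was not tested.

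Transcripts of other cell types were present in both groups. Of 5 B cell genes outside the rule with enough UMIs 1 was 2-fold higher, Cd74, the MHC class II chaperone, at 509 against 243 CPM, with 229 of its 680 UMIs in 1 cell. Without hashtag 9 none of the 5 passed 2-fold, nor did any without the richest cell of each gene (chosen after the data were seen). Cd74, H2-Aa and Igkc passed it without hashtag 10, without Scrublet doublets, with at least 2 CD8 UMIs and as a mean over cells. The same genes passed it without dividing cells (chosen after the data were seen). By receptor number, Cd74 stood at 288, 139, 285 and 961 CPM from none to 3. The summed level of the 10 B cell genes was 909 CPM against 492, and Cd79a and Ms4a1 were at 0 by the rule. Lyz2, a myeloid lysozyme, had 106 UMIs in 2 receptor-rich cells, 92 of them in 1, against 44 UMIs in 9 of the other CD8 T cells. It did not pass 2-fold without hashtag 12 or without Scrublet doublets. Besides S100a8 and S100a9, the 7 other myeloid genes, among them Csf1r and Mpo, had too few UMIs to enter. The sum of the 10 myeloid genes was 117 CPM against 1225, but 1 of the other CD8 T cells held 5768 of the 6238 myeloid UMIs of its group. Without the cell with most S100a8 and S100a9 UMIs in each group, a step chosen after the data were seen, the sums were 114 and 93.0 CPM. None of 4 NK cell genes passed 2-fold, with 664 against 430 CPM summed and Gzma the most abundant, and of 10 NK-type lectin receptor genes 1 did, Klra9, with 32 UMIs in 6 cells, and none did without hashtag 11. In a step chosen after the data were seen, leaving out the cells with at least 10 UMIs of Cd74, H2-Aa, Lyz2, S100a8 and S100a9 together, which left 84 receptor-rich cells, gave an Il10 level of 133 CPM. Leaving out the Scrublet doublets gave 136 CPM against 8.17 in the other CD8 T cells, and keeping only the 64 cells with a single hashtag gave 128 against 3.13 CPM.

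The hashtags are antibodies that carry a short DNA tag read beside the RNA, and the tags that sorted the receptor-rich cells to their samples were these, as the deposited feature table lists them, in lower case:
hashtag 9: tgcctatgaaacaag
hashtag 10: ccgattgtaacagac
hashtag 11: gcttaccgaattaac
hashtag 12: ctgcaaatataacgg

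The receptor-rich cells came from all 4 hashtags. They were 9 of 60 CD8+ T cells with hashtag 9 (15%, 7.10 to 26.6%), 29 of 132 with hashtag 10 (22.0%, 15.2 to 30.0%), 10 of 121 with hashtag 11 (8.26%, 4.03 to 14.7%) and 16 of 111 with hashtag 12 (14.4%, 8.47 to 22.4%). The intervals of hashtags 10 and 11 did not overlap, and all others did. Of the remaining 26 cells 21 carried more than 1 hashtag and 5 no called hashtag. No hashtag was called in 5.56% of the receptor-rich cells (1.83 to 12.5%) and in 0.424% of the other CD8 T cells (0.0514 to 1.52%). Il10 was found in 5, 11, 4 and 4 cells of hashtags 9 to 12, at 109, 114, 326 and 43.3 CPM. A single cell of hashtag 11 held 20 of its 42 Il10 UMIs, and without the richest cell of each hashtag the levels were 65.7, 74.8, 171 and 19.2 CPM. In the other CD8 T cells of these hashtags Il10 was at 0, 4.65, 2.34 and 4.09 CPM, below the receptor-rich cells of the same hashtag in each case. Ikzf2 was higher in the receptor-rich cells of each hashtag as well, at 496, 245, 326 and 164 CPM against 16.1, 34.4, 48.3 and 10.2, and Gzmb at 3087, 1115, 1885 and 1092 CPM against 652, 712, 320 and 294. Ifng was lower in the receptor-rich cells with hashtag 9 (2416 against 2655 CPM) and hashtag 11 (1358 against 2329) and higher in those with hashtags 10 and 12 (2640 against 1912 and 3271 against 701).

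**Figure D4:**
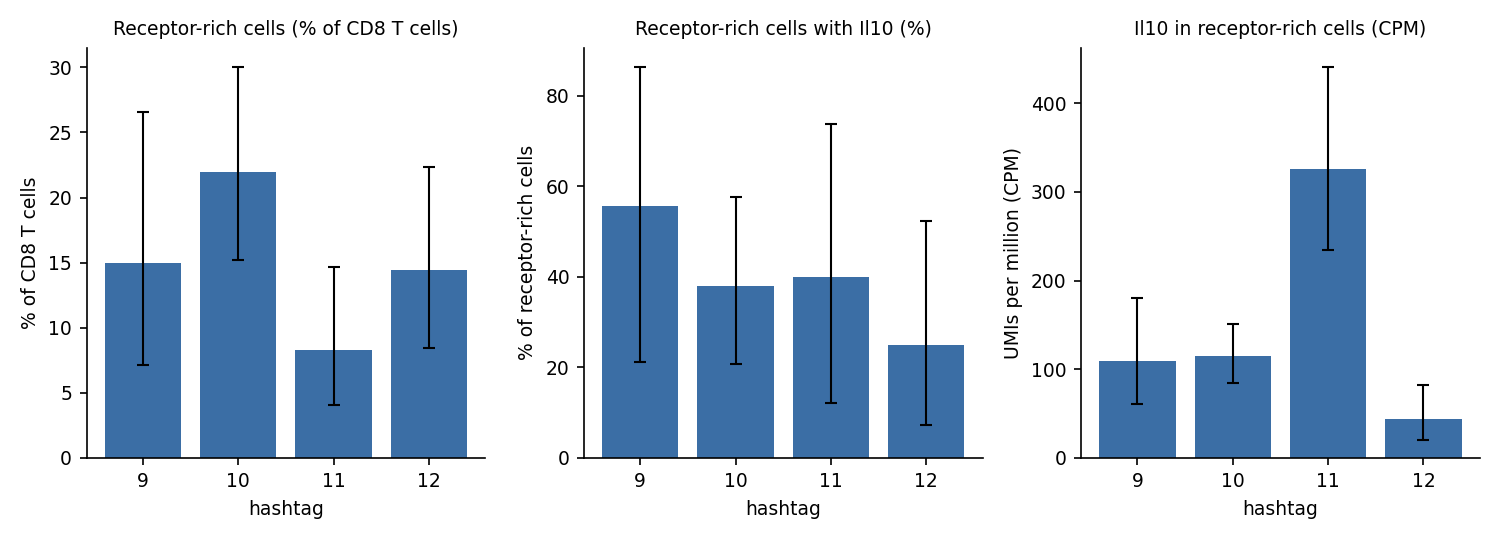
Receptor-rich cells as a share of the CD8+ T cells of each hashtag, the share of receptor-rich cells with an Il10 UMI, and their Il10 level in CPM, with exact 95% intervals; hashtags are not paired with therapies. Hashtag 10 had the largest share of receptor-rich cells (22.0%) and hashtag 11 the highest Il10 level (326 CPM), with Il10 in 4 of its 10 cells and a level of 171 CPM without the richest of them.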

How the data were processed

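Spleen cells pooled over 3 conditions were sequenced with the 10x Genomics 3′ v3.1 chemistry beside a hashtag library. The authors deposited UMI counts per gene, hashtag and barcode made with Cell Ranger (7.2.0 in the submitters' notes, 7.0.0 in the header of the matrix) on GRCm38, without normalization. Raw reads were not used here. The pool held 137010302 gene UMIs for 32285 genes, with a median of 6334 per barcode, 16826 of the 16829 barcodes also had a hashtag UMI, and 16325 barcodes passed the filter on genes and mitochondrial UMIs.

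UMIs were summed over the cells of a group and divided by the group's total, as CPM. Intervals are exact Poisson for CPM, exact Clopper-Pearson for shares and exact conditional for ratios, at 95%. A gene was counted as higher at 2-fold or more and as lower at 0.5-fold or less, with at least 50 UMIs over both groups. A gene low in 1 group could reach this minimum through the other group, so the counts and medians of the lists are descriptions. Thinning drew 2000 UMIs from each cell, which left out 1 of the other CD8 T cells and no receptor-rich cell. For NK cells it was done on 2000 of the 3594 cells, drawn at random, and shallower ones among these were left out. Of all 3594 NK cells 90 had fewer than 2000 UMIs. Named were the genes of 21 lists and the 15 highest and 15 lowest ratios among genes in at least 10% of the cells of the higher group. Most genes of the lists enter only through the counts and medians, and 2 genes that would have been named are not reported here. The genes compared within Il10-positive cells and named first were the list genes with at least 30 UMIs at the ends of the order, picked after their values were seen. The members and lists were chosen with earlier results of these data known.

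Hashtags were called over T cells with HTODemux (Seurat 5.3.0, R 4.3.3, quantile 0.85). Scrublet, run from scanpy 1.11.5 at an expected rate of 0.1, marked doublets because DoubletFinder was not installed, and these cells were kept in the values given. The B cells were those with Cd79a and Ms4a1 transcripts and the NK cells those with Ncr1, without T cell transcripts. Python 3.11.15, NumPy 2.4.6, SciPy 1.17.1, pandas 2.3.3 and matplotlib 3.10.9 were used. The ratio step was run on simulated group sums, where it recovered 200 of 200 genes changed 4-fold and called 38 of 7280 others. These sums held no differences between cells, so the simulation cannot show how calls at 2-fold behave where few cells hold a gene's UMIs. Alternatives were other filters, doublet and hashtag choices, thresholds of the rule, depth windows, thinning, weights, folds and minimum UMIs.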

Additional observations from a re-analysis of the deposited data

How the results depend on the processing

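With 90 receptor-rich cells, 1 cell can hold a large part of a gene's UMIs, and the median depth differs between the groups. A share of cells with a UMI falls when cells are made shallower, whereas a level does not need to. The Il10 level of 125 CPM went to 174 in cells with 5000 to 20000 UMIs, 103 without hashtag 11, 151 without dividing cells (chosen after the data were seen), 214 as a mean over cells, 194 in cells thinned to 2000 UMIs and 256 in cells thinned to 1000, and the Il10 share of 40.0% to 15.6% and 14.4% in the thinned cells. Over the 19 alternatives for the level, that of the other CD8 T cells lay between 3.09 and 16.9 CPM, below the receptor-rich cells each time. The 512 higher genes became 153 of 3410 genes and 86 of 1921 after thinning to 2000 and 1000 UMIs, 935 with a minimum of 20 UMIs, 302 with 100, 1379 at 1.5-fold and 136 at 3-fold. The 227 lower genes became 115 after thinning to 1000 UMIs, 487 and 127 with these minimums, 650 and 64 at these folds, and 362 without the richest cell of each gene (chosen after the data were seen). The 36 higher genes of the lists became 23 of 101 and 17 of 74 after thinning. Fewer genes reached the minimum in thinned cells, and the cause of the other shifts was not tested. The number of higher genes moved by over 1.5 times in at least 1 alternative in most lists: inhibitory receptors (5 in the report) had between 2 and 5, regulatory T cell genes (7) between 4 and 8, cytotoxic genes (4) between 4 and 7, Il10 regulators (2) between 0 and 4, chemokines (2) between 1 and 5, cell cycle genes (8) between 1 and 8, NK-type lectin receptors (1) between 0 and 5, B cell genes (1) between 0 and 3, and cytokines (1), homing genes (0) and NK cell genes (0) between 0 and 2. Myeloid, naive, T cell and TNF family genes had 0 or 1. The counts of effector and memory, early response and heat-shock genes stayed within 1.5 times. The number of receptor-rich cells lay between 64 and 90, and 71 in place of 64 had a single hashtag at a quantile of 0.99. No paired test over the 4 hashtags was made, since the cells were chosen by their own transcripts, and the values within each hashtag stand side by side in the report.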
